A study of Homo sapiens with 2 samples.

Results

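GFRA1 encodes the GDNF family receptor alpha 1, and it was 1 gene of the 1415 with a row in the RNA table of A549 cells with and without NAT10. A549 is an established human line of lung adenocarcinoma, and NAT10 is the acetyltransferase that places N4-acetylcytidine (ac4C) on RNA. The control group was wild-type A549 cells, and the knockout group, titled NAT10 ko1, was a single-cell clone made with CRISPR/Cas9 and a pair of guides against the fifth exon of NAT10. Each group had 1 library, with an effective size of 6077933 reads for control cells and 5474964 for knockout cells, so clonal differences and the loss of NAT10 cannot be told apart, and no difference has a replicate check. GFRA1 was chosen by its RPKM values in these 2 libraries, so its levels and its place among other genes are given as a description with no test. The level of NAT10 itself was not analysed here, so the direction of every difference rests on the library labels.

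GFRA1 is held at the outer face of the cell membrane by a glycosylphosphatidylinositol (GPI) anchor and has no kinase of its own. It binds glial cell line-derived neurotrophic factor (GDNF), and the pair then brings together the receptor tyrosine kinase RET, which passes the signal on through the RAS-MAPK and PI3K-AKT routes. GFRA1 can also act through the adhesion molecule NCAM1 where RET is missing. The pathway is best known for the survival of motor and enteric neurons, the growth of the ureteric bud in the kidney and the upkeep of spermatogonial stem cells.

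The gene (ENSG00000151892) lies on chromosome 10, from 116056925 to 116273467 on GRCh38, on the minus strand, with 5 annotated transcripts in GENCODE release 29. Transcripts GFRA1-203 and GFRA1-204 carry a coding sequence of 1383 bases and a 3' untranslated region of 7473 and 7465 bases. GFRA1-201 has 11 exons and a longer coding sequence of 1398 bases. The exons of all transcripts together cover 9678 bases, so most of the length over which reads were counted is untranslated. No annotated gene overlaps GFRA1. Of 9669 stretches of 50 bases in its transcripts, 6 occur in a transcript of another gene on either strand, none of them in the coding sequence and 0 in GFRA2, GFRA3, GFRA4 or GFRAL, so its reads have little to share with the rest of the receptor family. The table does not show which of the transcripts was read.

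The study mapped ac4C peaks by sequencing RNA captured with an antibody, and in CXCL5 and DEK it looked within peaks for repeats of a unit CNN. That unit is a C followed by any 2 bases. The peaks were not used here. The coding sequence of GFRA1 was searched on the sense strand for 4 such units in a row, with overlapping matches counted. The longest runs in GFRA1-201 are shown 5' to 3', with the C of each unit in capitals, because they are the longest stretches of the repeat in the coding sequence, the only region searched.
Run of 9 units: CcaCcaCtgCcaCtaCcaCcaCtgCcc
First run of 6 units: CtaCaaCtgCcgCtgCaa
Middle run of 6 units: CtgCaaCctCgaCgaCat
Last run of 6 units: CtgCctCctCgcCtaCtc
The run of 9 units lies in exon 9 of 11, at chr10:116089827-116089853. The runs of 6 units lie in exon 3 at chr10:116270887-116270904, in exon 6 at chr10:116125494-116125511 and in exon 7 at chr10:116096666-116096683, all on the minus strand of GRCh38. The coding sequence held 27 match starts, or 19.3 per kilobase, against a median of 9.17 per kilobase over 19497 human coding sequences. Such matches are common: 97.3% of the 4556 coding sequences within 20% of its length held at least 1, and the lower and upper quartiles of their counts were 6 and 26 starts. A run of 9 or more units was found in 21.8% of them. GFRA1 was 28.0% C in its coding sequence, against a median of 26.1%. A match is a stretch of letters, and no acetylation was measured in these 2 libraries.

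In the control library GFRA1 stood at 1.58 RPKM (reads scaled to gene length in kilobases and to library size), and in the knockout library at 11.5 RPKM. These values rest on 93 and 608 reads, recovered from RPKM and exon length. The exact Poisson interval (95%, counting error only) ran from 1.28 to 1.94 RPKM in the control. In the knockout it ran from 10.6 to 12.4 RPKM. The intervals do not overlap, but GFRA1 was chosen by these values, so the gap is no support for a difference. As a share of the library, GFRA1 took 15.3 RPM (reads scaled to library size alone) in the control, with an exact Clopper-Pearson interval from 12.4 to 18.7. In the knockout it took 111 RPM, with an interval from 102 to 120. The transcript was detected in both libraries, and its RPKM was 7.26-fold higher in the knockout.

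On the scale of log2(RPKM + 1), on which low genes move less than their reads do, the difference of GFRA1 was 2.27. The log2 ratio of its reads, scaled to library size, was 2.86 with a 95% counting interval from 2.54 to 3.19. Among the 1343 genes with whole reads in both libraries, 19 had more reads over both libraries together than the 701 of GFRA1, and the median gene had 19. GFRA1 is thus among the most deeply read rows of the table. The spread between cultures or clones was not measured.

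The next question was where GFRA1 stands among the protein-coding genes that were higher in the knockout. The table listed genes that differed about 2-fold or more: of 1140 rows above 0 in both libraries, 12 had a log2 RPKM ratio under 1 in size, the smallest being 0.99. It held 798 protein-coding rows, of which 308 (38.6%) were higher and 490 (61.4%) were lower in the knockout. Within the 308, GFRA1 had the largest difference in log2(RPKM + 1), ahead of NEFL at 2.12, and the median was 0.57. A difference above 1 on this scale was found for 37 of the 308 (12%), GFRA1 included. The same 37 rows make up 4.64% of all protein-coding rows, since rows lower in the knockout cannot pass this limit. At the low end of the 308, COL6A3 differed by 0.08 on 1 and 7 reads, and on the other side of equality the nearest protein-coding row was KCNJ6 at -0.07. Over all 1415 rows, short and noncoding RNAs included, GFRA1 was 13th by this measure.

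**Figure D1:**
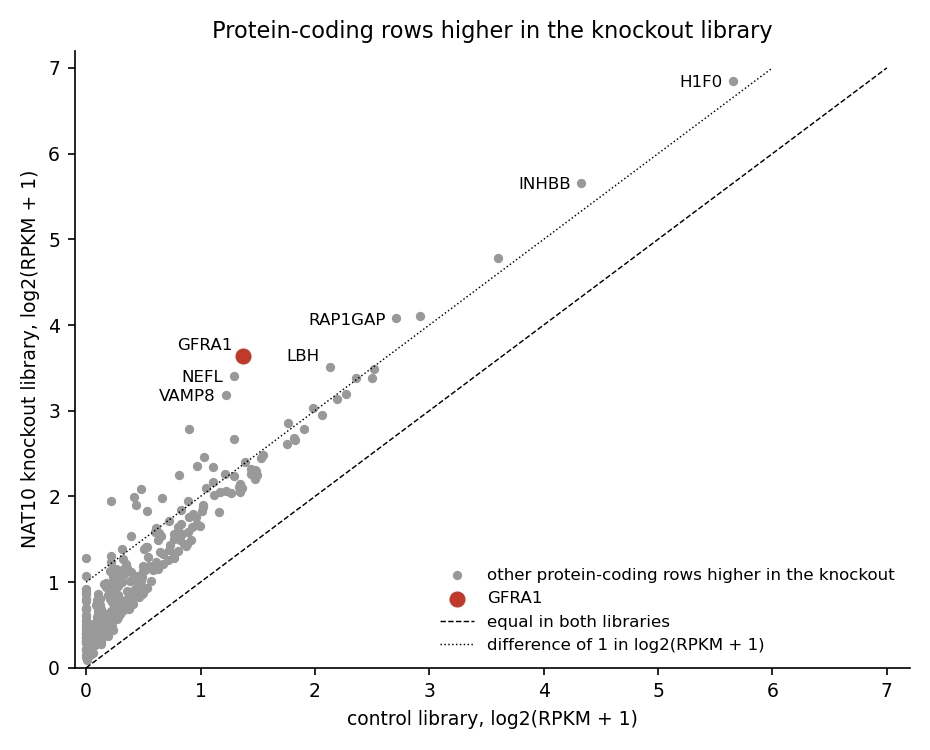
Level of the 308 protein-coding rows that were higher in the knockout, as log2(RPKM + 1) in the control library (x axis) and in the NAT10 knockout library (y axis), 1 point per gene. GFRA1 (red) sits farthest above the dashed line of equal levels, at a difference of 2.27, with NEFL and VAMP8 beside it.

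The place of GFRA1 moved with the measure, and it was 13th of the 308 when 0.1 RPKM was added before taking logs. By knockout RPKM it was 6th of the 308, below RAP1GAP at 15.9 and above LBH at 10.4. By the difference in RPKM, which was 9.89 for GFRA1, it was 5th, between RAP1GAP at 10.3 and IGFBP7 at 9.71. By control RPKM it was 28th, where the median was 0.24. Among all 798 protein-coding rows, GFRA1 stood at place 202 in the control and at place 14 in the knockout. Over the 288 of the 308 higher rows that had whole reads, its share of the reads went from 1.36% of 6826 control reads to 3.57% of 17019 knockout reads. Those rows and GFRA1 were chosen by the same values, so this share only restates its fold beside theirs.

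The fold alone placed GFRA1 lower. Of the 308 rows, 32 were listed at 0 in the control and had no fold, and among the other 276 GFRA1 was 36th, with a median fold of 3.06. Many of the rows ahead of it had few control reads: with more than 3 control reads required, GFRA1 was 4th of 188 and the median fold was 2.63. Of the 288 higher rows with whole reads, 0 had a counting interval of the log2 ratio wholly above that of GFRA1, 92 lay wholly below it and 195 overlapped it. In 52 of the 288 the interval included no change. By the lower limit of that interval GFRA1 came first, at 2.54. ADAMTS12, which encodes a secreted metalloproteinase, followed at 2.47, on 20 control and 159 knockout reads. HTRA3, a secreted serine protease, came next at 2.45 on 0 and 20 reads, and BCAT1, an enzyme of branched-chain amino acid breakdown, at 2.38 on 62 and 380 reads. The counting intervals of these genes overlap, and their order was not tested.

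**Figure D2:**
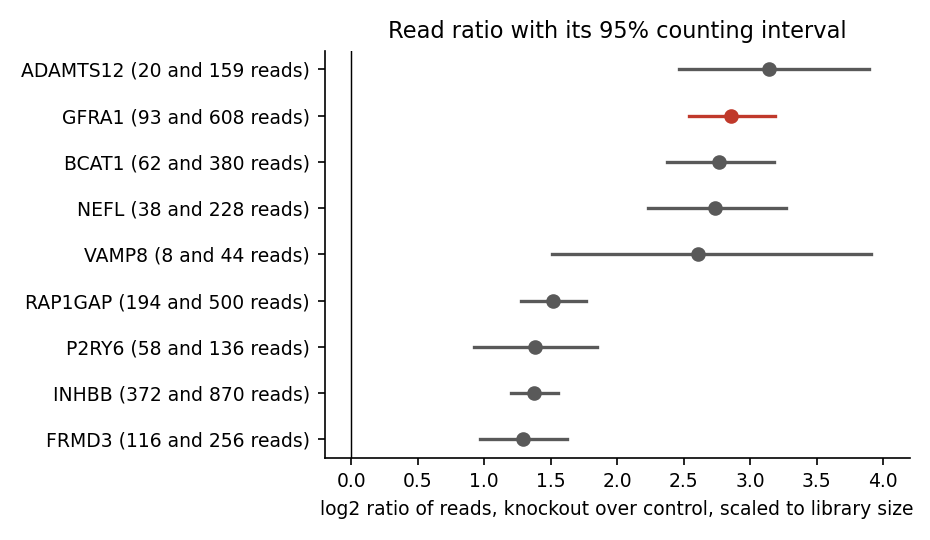
Log2 ratio of reads, knockout over control and scaled to library size (x axis), for GFRA1 (red) and the genes named beside it that had whole reads and at least 1 read in each library. Points are the ratios and bars the 95% Clopper-Pearson intervals, which cover counting error only. The interval of GFRA1, 2.54 to 3.19, overlaps those of ADAMTS12, BCAT1, NEFL and VAMP8 and lies above those of RAP1GAP, P2RY6, INHBB and FRMD3.

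Likeness to GFRA1 was measured over the 2 libraries as the straight-line distance between genes in log2(RPKM + 1), among protein-coding rows. NEFL, which encodes the light neurofilament protein of axons, was the nearest, at a distance of 0.25. It stood at 1.44 RPKM for control cells and 9.62 for knockout cells, on 38 and 228 reads, and its log2 read ratio ran from 2.24 to 3.27. VAMP8, a protein of vesicle fusion, followed at 0.48, with 1.33 and 8.12 RPKM on 8 and 44 reads. In each library the counting intervals of NEFL and VAMP8 overlapped those of GFRA1, and the difference between the genes was not tested. LBH, a transcription cofactor, was at a distance of 0.77, with 3.37 and 10.4 RPKM. FRMD3 and P2RY6 came next, at 0.86 and 0.88. FRMD3 had 2.94 RPKM in the control and 7.21 in the knockout, and P2RY6, a nucleotide receptor, had 2.40 and 6.25, so both began higher and differed less than GFRA1. With only 2 libraries, any gene of similar levels is near, and the distance says nothing more.

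The mean RPKM of GFRA1 over both libraries was 6.53, and 10 of the higher rows, GFRA1 included, reached that level. Among them the next differences after GFRA1 were those of LBH at 1.38, RAP1GAP at 1.37 and INHBB at 1.33. In the knockout library the RPKM interval of 5 genes lay wholly above that of GFRA1, and those of 4 others, NEFL, DPYSL3, STK26 and VAMP8, overlapped it. DPYSL3, which encodes a protein of axon growth, reached 10.2 RPKM from 4.73, and STK26, a protein kinase, 9.42 from 4.12.

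The pathway around GFRA1 was then followed from ligands to signalling. A row means that a gene was listed as differing, and the table held 798 protein-coding rows beside the 19497 human coding sequences searched above. The number of rows per list, here and below, is to be read against that share and was not tested. Of the 5 ligands listed (GDNF, NRTN, ARTN, PSPN and GDF15), 0 had a row, and of the 6 receptors GFRA1 was the only one with a row. RET and the receptors GFRA2, GFRA3, GFRA4 and GFRAL were not analysed here, nor were the ligands. The 9 other binding partners, NCAM1, the heparan sulfate carrier SDC3, the related receptor GAS1 and SORL1 among them, had 0 rows. The levels of the ligand and of the signalling receptor beside GFRA1 are therefore unknown from these libraries.

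Of 52 genes of RET signalling and its targets, 2 had a row, 1 higher and 1 lower, against 43% higher and 57% lower over all 1415 rows. RAP1GAP, which switches off the small GTPase Rap1 and is known to bind RET, had 5.55 RPKM in the control and 15.9 in the knockout, on 194 and 500 reads. Its log2 read ratio was 1.52, with an interval from 1.27 to 1.76, and its difference in log2(RPKM + 1) was 1.37. Both the level of RAP1GAP and that of GFRA1 were higher in the knockout, and the interval of RAP1GAP lay wholly below that of GFRA1. DOK6, an adaptor that docks on RET, had 5 control reads and 0 knockout reads, with a counting interval of the ratio that reached past equality.

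Receptor tyrosine kinases, the class to which RET belongs, had 8 rows for 58 genes, 2 higher and 6 lower, where 61.4% of protein-coding rows were lower. The median difference of the 8 in log2(RPKM + 1) was -0.29, against -0.32 over all protein-coding rows, and it was -0.0945 on the 4 rows with a mean of at least 10 reads. PTK7, a pseudokinase of Wnt signalling, had 22 and 54 reads, and ALK 7 and 20. Their differences were 0.58 and 0.37, and neither reached 1. The ephrin receptor EPHA5 had the largest negative difference of the list, at 70 control and 5 knockout reads, with a log2 read ratio of -3.66. EPHA4 had 48 and 16 reads, EPHA6 had 8 and 1, and EPHB6 had 8 and 0. FGFR2 had 12 and 2 reads, and FGFR3 stood at 0.92 and 0.30 RPKM. Each of these kinases had a knockout level of at most 1.09 RPKM, where the median over all protein-coding rows was 0.49.

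GFRA1 also belongs to the proteins held in the membrane by a GPI anchor. Of 107 genes on a list of such proteins, 8 had a row, and the 7 listed genes other than GFRA1 were lower in the knockout, where 61.4% of protein-coding rows were lower. The list is not exact: it holds PIGR, which is not GPI-anchored and had no row, and it is not complete. MDGA1, a GPI-anchored adhesion protein that the list lacks, was higher, with 21 control and 78 knockout reads and a difference of 0.69. SPRN, a GPI-anchored relative of the prion protein that it also lacks, was lower, with 38 and 16 reads. The median difference of the 7 in log2(RPKM + 1) was -0.84, against -0.32 over all protein-coding rows. It was -1.69 with a pseudocount of 0.1 RPKM, at which no median over all rows was computed. Of the 7, 3 were below -1, as were 12.2% of all protein-coding rows. CEACAM6, an adhesion molecule of epithelial surfaces, had 374 control reads and 2 knockout reads, with a log2 read ratio of -7.40 and an interval whose upper limit was -5.53. CD24, a small mucin-like adhesion protein, stood at 86.6 RPKM in the control and 26.7 in the knockout, with a log2 read ratio of -1.70. GPC6, a glypican that carries heparan sulfate, had 70 and 8 reads. BST1, THY1, CEACAM5 and SEMA7A had control levels from 0.27 to 2.43 RPKM and differences from -0.84 to -0.28. These counts hold for the list as drawn up, and no test goes with them.

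**Figure D3:**
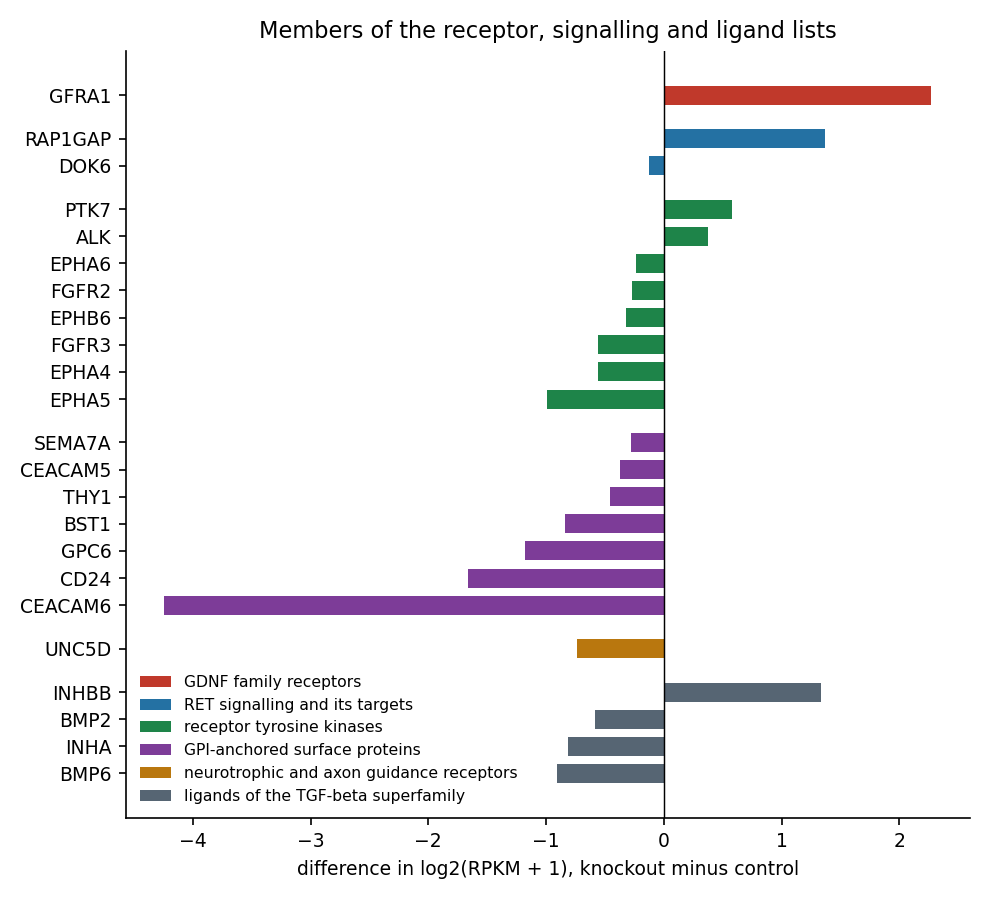
Difference in log2(RPKM + 1), knockout minus control (x axis), for the members of the receptor, signalling and ligand lists that had a row, coloured by list, with 1 library per group and no error bar. GFRA1 is the longest bar to the right at 2.27, and the bars of the 7 other listed GPI-anchored proteins point left, CEACAM6 farthest at -4.24 (MDGA1 is not on that list and not drawn).

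The list of neurotrophic and axon guidance receptors, which is not complete, gave 1 row for 30 genes. Ephrin receptors were counted with the kinases instead. UNC5D, a netrin receptor, had 44 control reads and 0 knockout reads, at least 13.2-fold lower against a floor of 3 reads in the knockout library, with the control reads taken as exact. GDNF ligands are distant members of the TGF-beta superfamily, and 4 of the 34 ligands listed for it had a row, 1 higher and 3 lower, with a median of -0.70, beside 61.4% lower and a median of -0.32 over all protein-coding rows. The direction of that median reversed to 0.21 on the 2 rows with a mean of at least 10 reads. INHBB, the beta B subunit of activin and inhibin, had 19.1 RPKM in the control and 49.6 in the knockout, with a log2 read ratio of 1.38. BMP6 had 23 and 4 reads, INHA 12 and 2, and BMP2 11 and 0.

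Markers of cell types were looked up in the same way. CDH1, which encodes E-cadherin, was the 1 of 6 epithelial markers with a row, at 8.82 RPKM for control cells and 3.76 for knockout cells, and the other epithelial markers were not analysed here. Of the neuronal markers SNAP25 alone had a row, at 4.46 and 2.18 RPKM, so it was lower in the knockout. The neurofilament genes, which were not on the marker list, were higher, NEFL as given above, NEFM on 1 and 9 reads and NEFH on 0 and 5 reads. COL1A1 was the only fibroblast marker with a row, at 0.50 and 0.22 RPKM. The 7 neuroendocrine and 5 blood cell markers had 0 rows. Their part in the GFRA1 difference was not tested, and in bulk RNA more cells with the transcript and more transcript per cell cannot be told apart.

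Whether the genes around GFRA1 differed in the same way was looked at on chromosome 10. GENCODE places 28 genes within 1 Mb of GFRA1, 12 of them protein-coding, and 1 of the 28 had a row. That gene was ATRNL1, an attractin-like membrane protein gene that ends 108 kilobases below GFRA1. It stood at 0.17 RPKM for control cells and 0.02 for knockout cells, and whole reads were not recovered for it. The nearest listed gene was thus lower where GFRA1 was higher, but at low levels and with no counting interval. The next rows on that side were AL139120.1, with 6 and 0 reads, and RBM20, a splicing factor with 82 and 37 reads. On the other side the nearest rows lay at least 4606 kilobases away. AC010998.2 had 13 and 4 reads, FGFR2 12 and 2, and ATE1-AS1 0 and 13. Of the 6 nearest rows, ATE1-AS1 was therefore the 1 higher in the knockout. AL139120.1 and AC010998.2 are antisense genes and their reads may belong to a partner, since strand handling in counting is not given in the sources used here. Over chromosome 10 without GFRA1, 39 of 59 rows were lower (66.1%) and 20 were higher, where 57% of all rows were lower. With a mean of at least 10 reads required, 11 of 21 were lower, and the share over all rows at that minimum was not computed. The largest difference in the higher direction among the 59 was 1.64, for AL596094.1, on 1 and 6 reads.

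**Figure D4:**
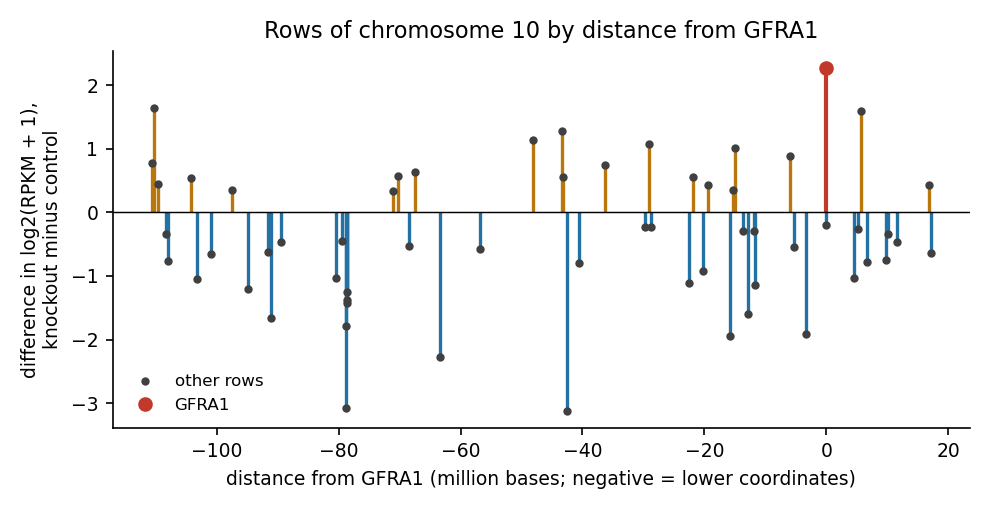
Difference in log2(RPKM + 1), knockout minus control (y axis), of the rows of chromosome 10 by their distance from GFRA1 in megabases (x axis), with orange lines for higher and blue lines for lower rows. GFRA1 (red, at 0) stands at 2.27, and 39 of the other 59 rows lie below 0, its neighbour ATRNL1 among them at -0.20.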

How the data were processed

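RNA of 1 control and 1 NAT10 knockout library was extracted with RNAiso Plus and made into libraries with a kit of the SMARTer line. The authors deposited RPKM per gene and library, in a table of genes that differed about 2-fold or more, so every count above describes the listed genes and not the transcriptome. For differentially expressed genes the study's methods name a p-value limit beside a limit on log2 fold change. The deposited columns of fold change, p-value and adjusted p-value were not used, so whether that p-value limit also shaped the table was not checked. The submitters' processing notes name hg38. Aligner, counter, annotation and strand handling are not given in the sources used here.

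Groups came from the sample titles. RPKM times the exon length in GENCODE release 29 (GRCh38) came within 0.02 of a whole read count in the control and in the knockout for 1343 of 1408 rows (95.4%). Effective library sizes were 6077933 and 5474964. For other rows RPKM alone is given. The recovery was tested on RPKM simulated from whole counts with the same exon lengths. That check cannot test whether the annotation is the one behind the deposited values. Intervals are exact at 95% and, like floors of 3 reads, cover counting error only, since reads carry no molecular identifiers.

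The gene, the gene lists and the naming rule were chosen with earlier results of these data known. Named genes were GFRA1, NAT10, list members with a row (all of the pathway and kinase lists, the 3 largest differences of other lists), the 5 nearest genes by distance, neighbours in each ranking, the 3 largest differences at or above the mean level of GFRA1 and the 3 nearest rows on each side. ADAMTS12, HTRA3, BCAT1, BMP2, DPYSL3, STK26, COL6A3, KCNJ6, MDGA1, NEFH, NEFM, SPRN, AL596094.1 and the GPI-anchored genes other than CEACAM6 and CD24 were named after their values were seen. No test was run. Python 3.11.15, pandas 2.3.3, numpy 2.4.6, scipy 1.17.1 and matplotlib 3.10.9 were used.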

Additional observations from a re-analysis of the deposited data

How the results depend on the processing

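With 1 library per group, leaving out a library was not possible. No paired analysis was possible because the result comes from no test and each group has 1 library. The ratio of reads and the ranking by the lower limit of its interval were chosen after seeing the data. The difference of GFRA1 was 2.27 on the log2(RPKM + 1) scale, 2.78 with a pseudocount of 0.1 RPKM, 1.32 with a pseudocount of 5 RPKM and 2.86 as a ratio of reads without a pseudocount. It was 3.27 with scaling to the median log ratio of the rows, which was -1.06. That scaling rests on a list limited to genes that differ, so it is no estimate of the library scale. The place of GFRA1 was 1 of 308. It stayed at 1 with a pseudocount of 5 RPKM, with a mean of at least 10 recovered reads and by the lower limit of the interval, and was 13 with a pseudocount of 0.1 RPKM, 6 by knockout RPKM and 5 by difference in RPKM. With a pseudocount of 0.1 RPKM the list medians were -1.27 for receptor tyrosine kinases, -1.69 for the 7 GPI-anchored genes other than GFRA1 and -2.00 for ligands of the TGF-beta superfamily. With a mean of at least 10 recovered reads they were -0.0945 on 4 rows, -1.18 on 5 rows and 0.21 on 2 rows, so the direction of the last one reversed. That minimum left 21 rows on chromosome 10, of which 11 were lower, and it drops rows without whole reads. Medians and shares over all rows were not computed at these settings. These values, here and above, therefore have no background beside them.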
